A study of Homo sapiens with 23 samples.

Results

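The scaffold of the cornified envelope was followed through 8 genes in tumours of a human skin cancer line in which the Flower gene was knocked out or wild type. The 3 early genes were IVL (involucrin), EVPL (envoplakin) and PPL (periplakin), and the 5 late genes were LORICRIN, CNFN (cornifelin), KPRP (keratinocyte proline-rich protein), CDSN (corneodesmosin) and SCEL (sciellin). They were chosen by name for their known place in the envelope, with earlier results of these data known, and are 8 of 27589 genes in the table. Each name had 1 row, and all 8 passed the filter on low values (mean over the tumours of 10 or more), as did 16063 genes in all.

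Knockout (KO) tumours came from the lines 2F7 (3 tumours), 2B8 (4) and 1G10 (4), and wild-type (WT) tumours from the lines 5B2, 6C9 and 6C10 (4 each). Every line is of SCC-13 (SCC13), an established line of cutaneous squamous cell carcinoma, and is hFWE KO or hFWE WT, where hFWE is human Flower, encoded by CACFD1. Cells in PBS and Matrigel, mixed 1:1, were grown under the skin of NCG mice (NOD-Prkdcem26Cd52Il2rgem26Cd22/NjuCrl), and the tumours were taken on day 26 and sequenced as poly(A) RNA. The series asks, by its title, whether a Flower isoform helps these carcinoma cells to cornify. The lines are known by their codes only, and the labels do not say how each was derived, or that each tumour came from its own mouse. Each line has 1 genotype, so a difference between genotypes and one between lines cannot be fully told apart. A p-value below measures the spread between these tumours, or between line means where those are the units. In the main fit, with the line as a random block, the estimated correlation between tumours of a line was 0.0077. The p-values of that fit therefore treat the tumours as nearly independent.

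Cornification is the last step in the life of a keratinocyte, when the dying cell replaces its membrane with a shell of proteins cross-linked by transglutaminases. The shell is built in order: involucrin and the plakins envoplakin and periplakin line the inside of the membrane first, and loricrin and small proline-rich proteins are then added in bulk. Corneodesmosin holds the finished cells together until they are shed. Involucrin, loricrin and KPRP are encoded within the epidermal differentiation complex, a cluster of barrier genes, and EVPL, PPL, CNFN, CDSN and SCEL lie on other chromosomes.

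The promoters of the scaffold genes carry part of what is known of their control, and 3 of them are shown because they share a match to the same motif. RefSeq promoters (GRCh38.p14) were matched for 6 of 8 members, and EVPL and PPL had no entry. The 250 bases before the RefSeq start of each gene were searched on both strands for TGANTCA, the core of the site bound by AP-1 (Fos and Jun proteins), and for TATAAA, the core of the TATA box. These motifs do not overlap in sequence. Capitals mark the matches below, each printed 5′ to 3′ on the strand of its gene, which is the plus strand in all 3.
IVL, chr1:152908296-152908545, plus strand: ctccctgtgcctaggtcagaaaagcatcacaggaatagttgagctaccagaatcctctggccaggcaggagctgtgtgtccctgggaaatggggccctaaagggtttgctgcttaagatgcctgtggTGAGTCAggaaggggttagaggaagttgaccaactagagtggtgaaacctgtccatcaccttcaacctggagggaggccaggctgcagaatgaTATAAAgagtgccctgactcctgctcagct
LORICRIN, chr1:153259437-153259686, plus strand: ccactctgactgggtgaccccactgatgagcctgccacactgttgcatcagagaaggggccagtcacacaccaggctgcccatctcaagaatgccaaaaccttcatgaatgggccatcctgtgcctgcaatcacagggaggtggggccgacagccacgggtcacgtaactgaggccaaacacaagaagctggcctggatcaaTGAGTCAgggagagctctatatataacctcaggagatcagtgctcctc
SCEL, chr13:77535456-77535705, plus strand: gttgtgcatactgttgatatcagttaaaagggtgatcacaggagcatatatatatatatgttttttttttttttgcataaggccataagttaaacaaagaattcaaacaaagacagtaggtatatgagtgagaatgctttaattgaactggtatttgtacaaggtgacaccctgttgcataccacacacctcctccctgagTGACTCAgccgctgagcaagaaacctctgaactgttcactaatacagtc
The match to TGANTCA begins 123 bases before the start in IVL, 48 bases before it in LORICRIN and 49 bases before it in SCEL. It was found in 3 of the 6 matched members and in 6.57% of 35116 human promoters of the same length. The TATAAA match in IVL begins 30 bases before the start. KPRP was the other member with TATAAA, which was present in 10.7% of all these promoters. A match describes the letters in this window, and no binding was measured.

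Values are the authors' normalized counts, and most low values of a library were whole multiples of 1 step, taken as 1 read. In 21 libraries the depth estimated from the smallest steps of the values was 13082214 to 22093213 reads. The exceptions were 2 WT libraries of line 6C9, specimen 5532 with 7011069 and specimen 5533 with 2037751 reads. Specimen 5533 also had 6.21% of its value in mitochondrial genes, against 1.39 to 3.50% elsewhere, and correlated least with the rest of the series, at a median r of 0.763 where all others reached 0.943 or more. CACFD1 was still transcribed in all tumours, at 167, 277 and 370 in KO tumours and 286, 370 and 432 in WT tumours (lowest, median, highest), a difference of -0.45 ± 0.11 (log2, SE; limma adjusted p = 0.227). Keratinocyte markers were abundant in all tumours, while the summed fibroblast markers ranged from 5186 to 32040.0 in KO tumours and from 2631 to 19730.0 in WT tumours. In bulk tumour RNA, fewer cells of a type and less RNA per cell cannot be told apart.

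The late genes were lower in KO than in WT tumours by their central values, and the early genes differed less. LORICRIN had a fitted level of 0.220 times that of WT tumours, SCEL, KPRP and CNFN 0.493, 0.494 and 0.536 times, and CDSN 0.723 times. IVL stood at 1.19 times, EVPL at 1.13 times and PPL at 0.968 times. No member passed the test across all genes: 0 of 8 had an adjusted p under 0.05 in limma, which called 1 gene of 16063 (0.00623%). At an unadjusted p under 0.05, 5 of 8 members, the late ones, were lower in KO tumours, against 6.63% of all genes, and 0 of 8 were higher, against 5.9% of all genes. That count of 5 was 2 without KO line 2B8 (LORICRIN and SCEL), against 2.94% of all genes. It was 3 with line means as the units (LORICRIN, CNFN and KPRP), against 4.81%. With the fibroblast markers as a covariate it was 3 (LORICRIN, CNFN and SCEL), against 2.37%. The median log2 difference was 0.18 over the early genes, -1.02 over the late genes and 0.03 over all tested genes.

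**Figure D1:**
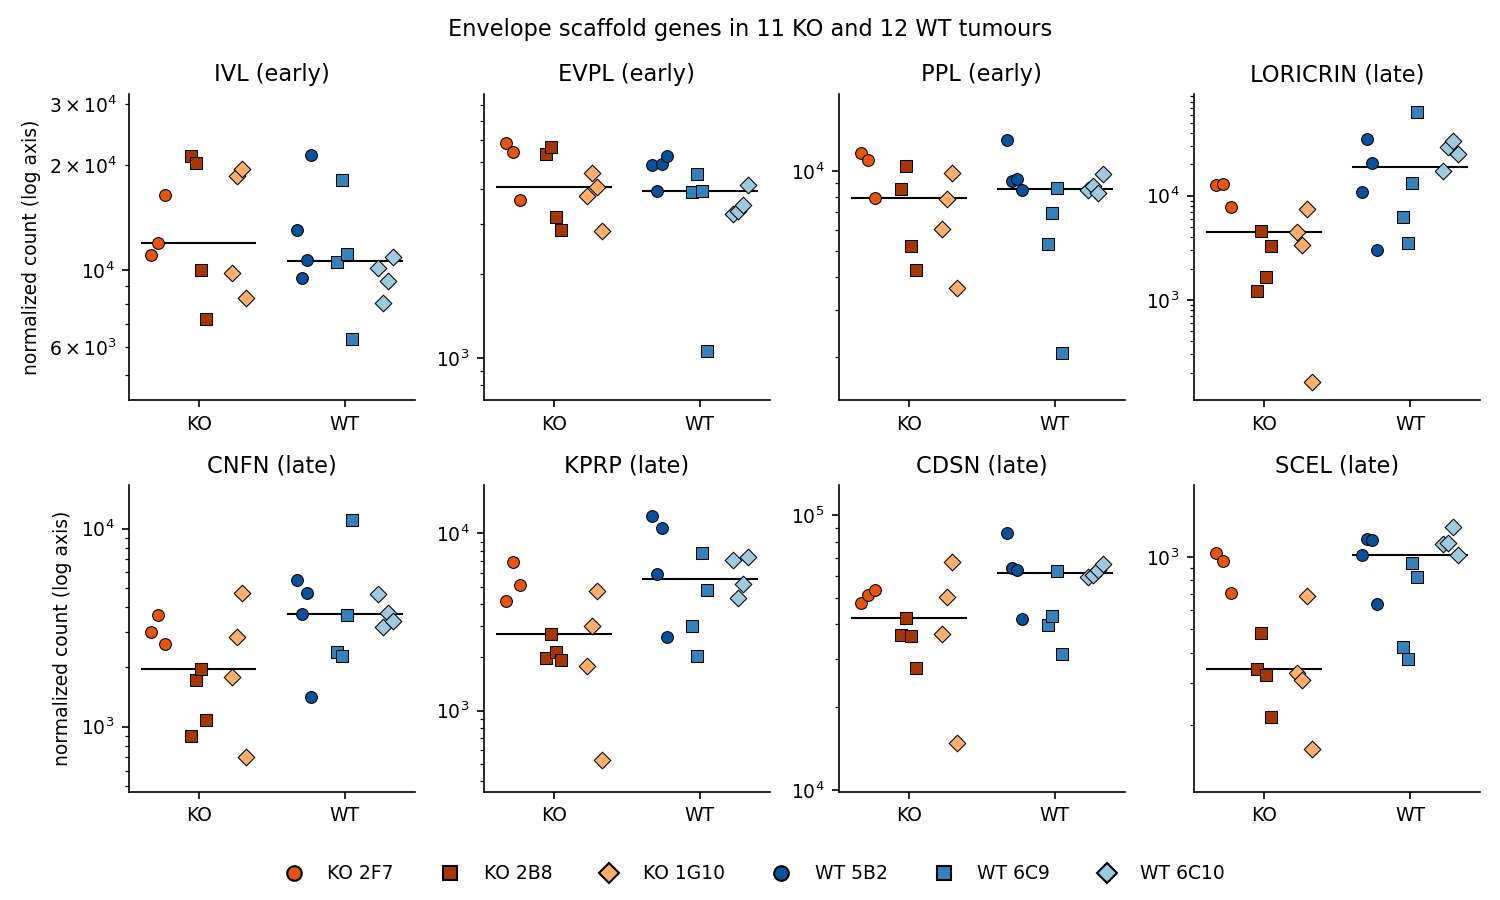
Normalized count of each scaffold gene (vertical log axis, its own range in each panel) in the 11 KO and 12 WT tumours, 1 point per tumour, with colour and shape for the line and a bar at the group median. All 11 KO tumours lie below the WT median for LORICRIN, and the KO and WT points overlap for every gene.

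IVL, the first scaffold protein laid down (ENSG00000163207, chr1:152908546-152911887, plus strand, hg38), overlapped almost completely between the genotypes. Its lowest, median and highest values were 7249, 11943 and 21298 in KO tumours and 6331, 10605 and 21487.5 in WT tumours. Of 11 KO tumours, 7 lay above the WT median, and the highest tumour of all was WT. The means were 14064 ± 5264 in KO tumours (SD, n = 11) and 11608 ± 4247 in WT tumours (n = 12), and the fitted difference was 0.26 ± 0.21 (log2, SE; limma adjusted p = 0.567).

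EVPL, which dimerises with periplakin to anchor the envelope to desmosomes and keratin filaments (ENSG00000167880, chr17:76004502-76027307, minus strand, hg38), ranged over 2850.0, 4082 and 5871 in KO tumours and 1060, 3954 and 5286 in WT tumours. The lowest WT value belonged to the shallow specimen 5533, and 4 KO tumours lay above all WT tumours. The difference was 0.18 ± 0.21 (log2, SE; limma adjusted p = 0.667) and became 0.02 without both shallow libraries. PPL (ENSG00000118898, chr16:4882507-4960742, minus strand, hg38) ranged over 3631, 7919 and 11655 in KO tumours and 2055, 8572 and 13035 in WT tumours. Specimen 5533 was again the lowest WT tumour, and the KO range lay inside the WT range. The PPL difference was -0.05 ± 0.25 (log2, SE; limma adjusted p = 0.933), with a 95% interval of -0.56 to 0.46, so a change of moderate size in either direction was not detectable.

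LORICRIN, the bulk component of the mature envelope (ENSG00000203782, chr1:153259687-153262125, plus strand, hg38), had the widest range of all members. Its lowest, median and highest values were 163, 4458 and 13019 in KO tumours and 2982, 19010.0 and 63992 in WT tumours. All 11 KO tumours were below the WT median and 3 were below every WT tumour, while 8 of 12 WT tumours were above every KO tumour. The means were 5438 ± 4379 in KO tumours (SD, n = 11) and 21919.5 ± 17371 in WT tumours (n = 12). The difference was -2.18 ± 0.63 (log2, SE), with an unadjusted p of 0.00189 and an adjusted p of 0.227 in limma. The lowest KO value, in specimen 5549 of line 1G10, stood for 209 reads, and the highest WT value came from specimen 5533.

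SCEL, an envelope precursor of stratified epithelia (ENSG00000136155, chr13:77535674-77645264, plus strand, hg38), was the lowest member in level. It ranged over 158, 342 and 1042 in KO tumours and 378, 1017 and 1326 in WT tumours. Of the KO tumours, 6 of 11 were below every WT tumour, the largest such count among the 8 members, and no WT tumour was below the KO median. The difference was -1.02 ± 0.29 (log2, SE), with an unadjusted p of 0.00181 and an adjusted p of 0.227 in limma.

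KPRP, a proline-rich protein of the upper epidermis (ENSG00000203786, chr1:152759561-152762053, plus strand, hg38), ranged over 524, 2693 and 6931 in KO tumours and 2042, 5520 and 12498.5 in WT tumours. CNFN, a component of the cornified envelope (ENSG00000105427, chr19:42387019-42390298, minus strand, hg38), ranged over 705, 1963 and 4701 in KO tumours and 1406, 3685 and 11053.5 in WT tumours. For both, 10 of 11 KO tumours were below the WT median, and the groups overlapped. The differences were -1.02 ± 0.36 for KPRP and -0.90 ± 0.32 for CNFN (log2, SE), and both had an adjusted p of 0.276 in limma.

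CDSN, the adhesive protein of corneodesmosomes (ENSG00000204539, chr6:31115087-31120447, minus strand, hg38), had the highest counts and the smallest shift of the late genes. It ranged over 14765.5, 42093 and 67309.5 in KO tumours and 31088, 61511 and 85716.5 in WT tumours. Again 10 of 11 KO tumours were below the WT median, but 2 were below every WT tumour. The difference was -0.47 ± 0.21 (log2, SE), with an unadjusted p of 0.0354 and an adjusted p of 0.366 in limma. The gene overlaps PSORS1C1 on the opposite strand, which averaged 1109 ± 323 in KO tumours and 1402 ± 408 in WT tumours (SD), and the strand setting of the counting was not stated.

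When the lines were taken as the units, the late difference was uneven. The means of all 3 KO lines lay below those of all 3 WT lines for 2 of 8 members, LORICRIN and CNFN, against 8.87% of all genes, and above them for 0 of 8, against 9.77%. An exact two-sided permutation test on the 6 line means gave p = 0.1 for these genes, the smallest value that 3 lines against 3 allow. It gave 0.2 for KPRP, CDSN, SCEL and IVL, 0.4 for EVPL and 1 for PPL. CDSN, KPRP and SCEL failed to separate because WT line 6C9 averaged below KO line 2F7.

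KO lines 2B8 and 1G10 carried most of the late difference, and KO line 2F7 lay near the WT lines. SCEL was 1042, 959.6 and 705 in the tumours of line 2F7, and 342, 481, 323 and 216 in those of line 2B8. In line 1G10 it was 329.5, 306, 691 and 158. Every 2F7 tumour was thus above every 2B8 and 1G10 tumour for SCEL. LORICRIN was 12811, 13019 and 7818 in line 2F7, 1214, 4615, 1669 and 3256 in line 2B8, and 4458, 3392, 7398 and 163 in line 1G10, again with 2F7 above the rest. KPRP averaged 5407 ± 1408 in line 2F7 (SD, n = 3), 2185 ± 351 in line 2B8 and 2513 ± 1795 in line 1G10 (n = 4 each).

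Set against the mean of the 3 WT lines, line 2F7 differed by -0.51 ± 0.89 for LORICRIN, 0.03 ± 0.33 for SCEL and -0.02 ± 0.49 for KPRP (log2, SE). Line 2B8 differed by -2.72 ± 0.80 for LORICRIN, -1.41 ± 0.29 for SCEL, -1.30 ± 0.44 for KPRP and -1.44 ± 0.43 for CNFN. Line 1G10 differed by -2.91 ± 0.80 for LORICRIN, -1.42 ± 0.29 for SCEL, -1.48 ± 0.44 for KPRP and -0.85 ± 0.43 for CNFN. IVL had close values in the KO lines, at 0.23, 0.28 and 0.26 for 2F7, 2B8 and 1G10. In limma 0 of 8 members were called for any of these lines, as for 0% of all genes in each of the 3 comparisons. At an unadjusted p under 0.05, line 2F7 had 0 of 8 members lower (1.1% of all genes), line 2B8 had the 5 late ones (4.47%), and line 1G10 had LORICRIN, KPRP and SCEL (5.62%). The 3 comparisons share the WT tumours.

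**Figure D2:**
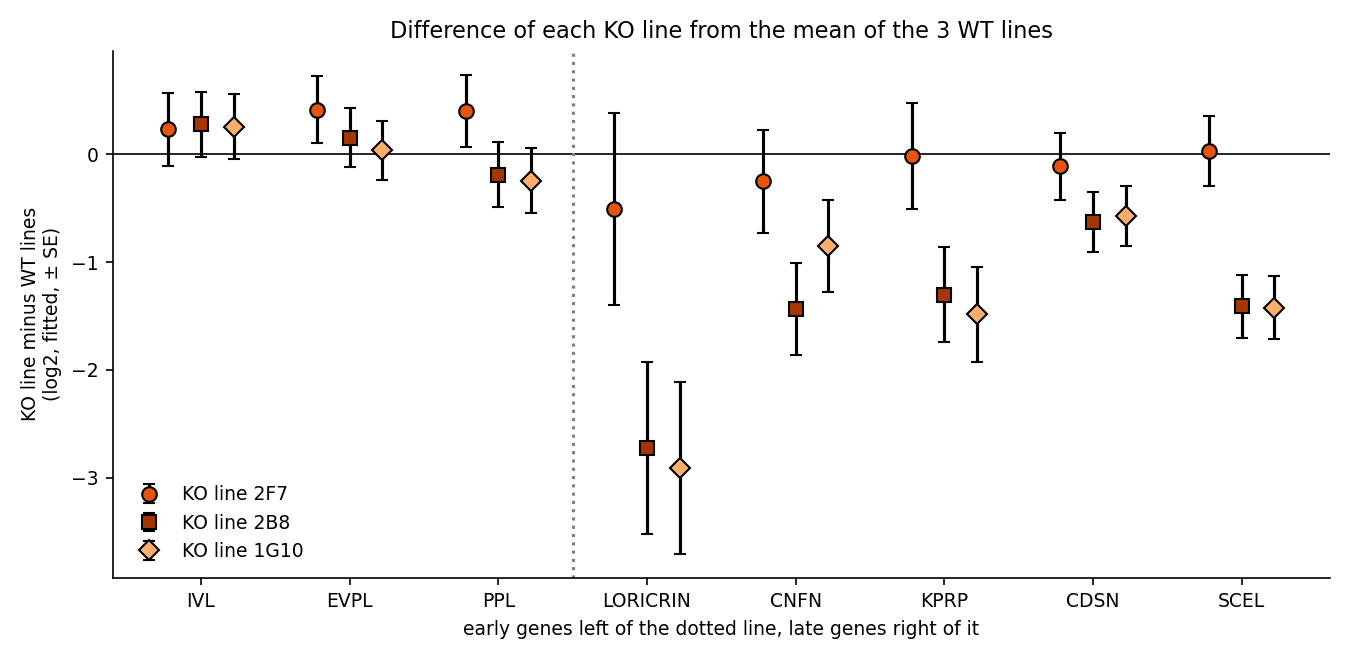
Fitted log2 difference of each KO line from the mean of the 3 WT lines (vertical axis, bars ± SE) for the 3 early and 5 late genes, with 3 tumours in 2F7 and 4 in each other line. Lines 2B8 and 1G10 lie below 0 for all 5 late genes, and the bars of line 2F7 cross 0 for all 5.

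A direct test among the KO lines gave 0 of 8 members called, against 0% of all genes, and 2 of 8 at an unadjusted p under 0.05, SCEL (p = 0.00167) and KPRP (p = 0.0455), against 2.22% of all genes. Among the WT lines 0 of 8 were called, against 0.00623%, and 2 of 8 were under the unadjusted threshold, PPL (p = 0.0355) and SCEL (p = 0.0389), against 10.3% of all genes. All these p-values are from limma F tests, and neither gene passed after adjustment (adjusted p = 0.482 for both among the WT lines). PPL averaged 9997 ± 2059 in line 5B2, 5746 ± 2808 in line 6C9 and 8827 ± 647 in line 6C10 (SD, n = 4 each). SCEL averaged 1004 ± 256, 641 ± 282 and 1153 ± 129 in the same lines, so 6C9 was lowest for both. That line holds both shallow libraries, and the shallow specimen 5533 had the lowest PPL of all tumours. For SCEL the shallow specimens 5532 and 5533 were the higher ones of the line, at 941 and 822, against 424 and 378 in specimens 5530 and 5531. LORICRIN varied within lines, with a highest tumour 1.67 times the lowest in 2F7, 3.80 times in 2B8, 45.4 times in 1G10, 11.8 times in 5B2, 18.1 times in 6C9 and 1.97 times in 6C10.

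The balance of early to late genes was summarised in each tumour as the mean log2 value of the 3 early genes minus that of the 5 late genes. It was 0.36, 1.12 and 2.70 in KO tumours and -2.02, -0.21 and 1.67 in WT tumours (lowest, median, highest). All 11 KO tumours were above the WT median, and 2 of 12 WT tumours were above the KO median, specimen 5529 of line 5B2 and specimen 5531 of line 6C9. The mean was 1.24 ± 0.75 in KO tumours (SD, n = 11) and -0.01 ± 0.96 in WT tumours (n = 12), a difference of 1.25. By line it was 0.51 ± 0.13 in 2F7, 1.57 ± 0.58 in 2B8 and 1.45 ± 0.89 in 1G10. It was 0.27 ± 0.95 in 5B2, 0.02 ± 1.49 in 6C9 and -0.32 ± 0.12 in 6C10, so each KO line mean was above each WT line mean. The early component differed little, with means of 12.85 in KO and 12.72 in WT tumours, and the late component was 11.61 in KO and 12.73 in WT tumours. No test was made on this score, whose members were known to differ.

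The order of the mean levels was not the same in both genotypes. Per kilobase of exon (GENCODE 29), KO tumours had CDSN highest at 16530.0, then IVL at 6532, LORICRIN at 4421, CNFN at 3763, KPRP at 1277, PPL at 1022, EVPL at 573 and SCEL at 120.1. In WT tumours CDSN was again highest at 22207, followed by LORICRIN at 17821, CNFN at 6862, IVL at 5392, KPRP at 2449, PPL at 1066, EVPL at 519.9 and SCEL at 222. IVL therefore ranked above LORICRIN in KO tumours and below it in WT tumours by mean level. Some neighbours were not clearly apart: LORICRIN exceeded CNFN in 6 of 11 KO tumours, KPRP exceeded PPL in 7 of 11 KO tumours, and CDSN exceeded LORICRIN in 8 of 12 WT tumours. PPL exceeded EVPL in all tumours of both genotypes. In normalized counts not divided by exon length, IVL exceeded LORICRIN in 9 of 11 KO tumours and 4 of 12 WT tumours. The ratio of IVL to LORICRIN in these counts ran from 0.861 to 51.0 in KO tumours and from 0.0989 to 7.21 in WT tumours.

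The late genes went up and down together across the KO tumours. Over the 10 pairs of late genes, Pearson's r was 0.80 to 0.93 and Spearman's rho 0.67 to 0.89 in KO tumours (n = 11), and r was 0.06 to 0.77 and rho 0.21 to 0.76 in WT tumours (n = 12). Both coefficients had a permutation p under 0.05 after adjustment over 56 relations for 9 of the 10 pairs in KO tumours and 1 of the 10 in WT tumours. The permutations moved tumours freely within a genotype and took no account of the line, so differences between lines enter these p-values. Minus line means, over the 21 tumours of both genotypes without the shallow libraries, r was 0.75 to 0.92. Leaving out the 2 tumours farthest from the median of the first gene gave r of 0.60 to 0.89 in KO tumours and -0.23 to 0.93 in WT tumours. Without both shallow libraries, specimens 5532 and 5533, r in WT tumours was 0.62 to 0.90, and these were left out only together. Of the WT tumours, specimen 5533 had the highest LORICRIN (63992) and CNFN (11053.5) and the lowest CDSN (31088). The difference in r between the genotypes was not tested.

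Pairs of an early and a late gene had lower median coefficients than pairs of late genes. Over the 15 pairs of an early and a late gene, r was 0.26 to 0.88 with a median of 0.59 in KO tumours and -0.91 to 0.86 with a median of -0.26 in WT tumours. Both coefficients passed the adjusted permutation threshold, which again took no account of the line, for 4 of the 15 pairs in KO tumours and 2 of the 15 in WT tumours. Minus line means, over the same 21 tumours, r was 0.003 to 0.79 with a median of 0.43. Leaving out the 2 tumours farthest from the median of the early gene gave r of 0.13 to 0.79 in KO tumours and -0.76 to 0.82 in WT tumours. The early genes were unlike in this. With the late genes, r in KO tumours was 0.26 to 0.63 for IVL, 0.42 to 0.68 for EVPL and 0.70 to 0.88 for PPL. Without both shallow libraries, r in WT tumours was -0.88 to -0.46 for IVL, -0.59 to 0.01 for EVPL and 0.39 to 0.87 for PPL. PPL with SCEL in KO tumours had r of 0.88 and rho of 0.91 (permutation p = 0.00049 and 0.00027, adjusted 0.00274 and 0.00504), with r of 0.76 without the 2 farthest. PPL with CDSN in WT tumours had r of 0.86 and rho of 0.90 (permutation p = 3e-05 and 0.0002, adjusted 0.00121 and 0.00504), with r of 0.82 without the 2 farthest. IVL with LORICRIN was the lowest pair in both genotypes. These 3 pairs were picked after the values were seen.

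The values of IVL and LORICRIN in each tumour show what that lowest pair holds. In WT tumours its r was -0.91 and rho -0.86 (permutation p = 8e-05 and 0.00088, adjusted 0.00121 and 0.00744). It was 1 of the 2 WT pairs of an early and a late gene that passed. Its r was -0.76 without the 2 tumours farthest in IVL, and -0.94 minus line means. In KO tumours r was 0.26 and rho 0.21 (permutation p = 0.459 and 0.538), and r was 0.35 minus line means. IVL lay in separate ranges in both genotypes, so the ranges are given beside the coefficients. In KO tumours IVL was 7249 to 11943 in 6 tumours, with LORICRIN at 163 to 13019, and 16403 to 21298 in 5 tumours, with LORICRIN at 1214 to 7818. In WT tumours IVL was 18201.5 and 21487.5 in specimens 5531 and 5529, which had the lowest LORICRIN of all WT tumours, at 3542 and 2982. In the 10 other WT tumours IVL was 6331 to 13050.2 and LORICRIN 6192 to 63992, with the lowest IVL and the highest LORICRIN both in the shallow specimen 5533.

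**Figure D3:**
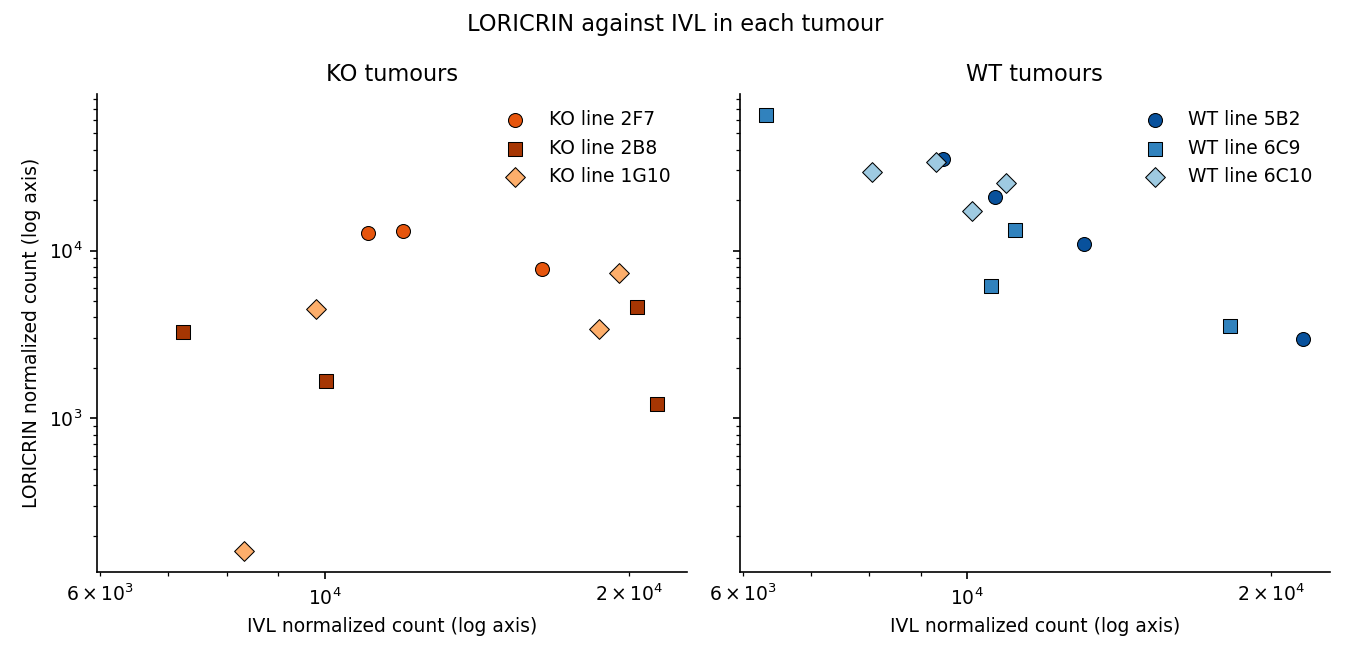
LORICRIN against IVL (normalized counts, both on log axes) in KO tumours (left) and WT tumours (right), 1 point per tumour, with colour and shape for the line. The 2 WT tumours of highest IVL have the lowest LORICRIN of the WT tumours, and KO specimen 5549 has the lowest LORICRIN of all, at 163.

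The genes most like each member were found by Pearson's r of log2 values, minus line means, over the 21 tumours without the shallow libraries, among 12170 genes. LORICRIN was most like HAL (0.96), ARG1 (0.96) and LIPM (0.96), and SCEL was most like SERPINB13 (0.98), MBOAT2 (0.94) and SERPINB3 (0.94). CDSN was most like TOB1, PRSS8 and GSDMA (0.97 each), KPRP like RNF39, ABHD17B and SESN2 (0.97, 0.96 and 0.96), and CNFN like GDA, TOB1 and MARCHF3 (0.95, 0.93 and 0.93). PPL was most like VSIG10L, ZNF750 and TGM1 (0.96, 0.96 and 0.94), and EVPL like MINK1, GK5 and NBEAL2 (0.94, 0.91 and 0.91). IVL was most like PPIF (0.97), SAMD10 (0.96) and DLGAP4 (0.96). Over all 23 tumours, r of these pairs ran from 0.64 (EVPL with GK5, and CNFN with TOB1) to 0.98 (SCEL with SERPINB13). It was 0.72 for CNFN with GDA, 0.75 for KPRP with SESN2, 0.76 for CDSN with PRSS8 and 0.95 for LORICRIN with HAL.

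Many of the genes most like IVL lie on chromosome 20. Of the 50 genes most like IVL, 19 are there, on a chromosome that holds 2.7% of the genes compared, although IVL is on chromosome 1. The count was 1 for PPL and 0 for each of the 6 other members, a count of positive likeness only. Other members had their own commonest chromosome, with 15 of 50 on chromosome 1 for KPRP and 13 of 50 on chromosome 17 for EVPL. Each of these is the chromosome of the member itself. The commonest chromosome held 6 to 10 of the 50 for PPL, LORICRIN, CNFN, CDSN and SCEL. The share of all compared genes on these chromosomes was not counted. The mean log2 value of the 415 tested chromosome 20 genes fell into separate ranges: relative to the WT median it was 0.33 to 0.51 in 6 KO tumours and -0.06 to 0.01 in the other 5, and 0.425 to 0.499 in 2 WT tumours and -0.39 to 0.04 in the other 10. The tumours of high chromosome 20 level were the 5 KO and 2 WT tumours of high IVL, with KO specimen 5549 beside them, whose IVL was 8315. LORICRIN was 163 to 7818 in the 6 KO tumours of the high range and 1669 to 13019 in the other 5. In WT tumours, the 2 of the high range (specimens 5529 and 5531) had the lowest LORICRIN and the lowest CNFN, with CNFN at 1406 and 2264. Specimen 5533, the lowest in chromosome 20 level, had the highest of both and the lowest EVPL. That library is the shallowest of the series, and the part of depth in its chromosome 20 level was not tested. Pearson's r with this level in WT tumours was -0.83 for LORICRIN, -0.87 for CNFN and 0.73 for EVPL, specimen 5533 included. In KO tumours it was -0.27, -0.07 and 0.25.

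With the chromosome 20 level as a covariate, a setting added after the values were seen, the KO minus WT difference of IVL was -0.07 ± 0.13 and that of EVPL -0.02 ± 0.19 (log2, SE; limma adjusted p = 0.988 and 0.997). The late genes kept their sign, with LORICRIN at -1.59 ± 0.59, SCEL at -0.89 ± 0.31, KPRP at -0.84 ± 0.38, CNFN at -0.64 ± 0.31 and CDSN at -0.49 ± 0.23. Of these late genes, 4 were under an unadjusted limma p of 0.05 (CNFN was not, at 0.0511), where 3.54% of all genes were lower. The part of the chromosome 20 level in these differences was not tested beyond this.

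**Figure D4:**
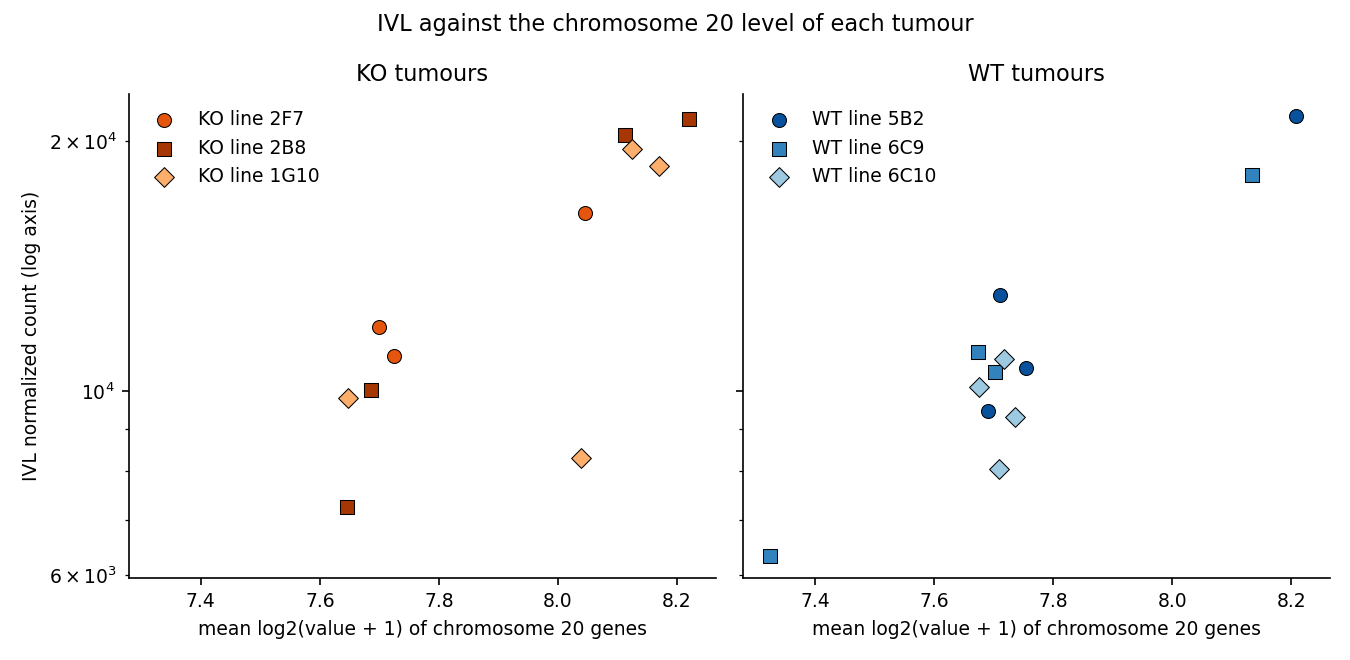
IVL (normalized count, log axis) against the mean log2(value + 1) of the 415 tested chromosome 20 genes in KO tumours (left) and WT tumours (right), 1 point per tumour, with colour and shape for the line. The 5 KO and 2 WT tumours with the highest IVL sit at the right, together with KO specimen 5549, whose IVL is 8315.

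Within the epidermal differentiation complex, most genes had a lower value in KO tumours and IVL did not. Of 60 coding genes from S100A10 to S100A1, 53 were tested, of which 45 had a negative and 8 a positive KO minus WT difference, with a median of -0.55. None of the 53 passed the adjusted threshold, and at an unadjusted p under 0.05 there were 30 lower in KO tumours (6.63% of all genes) and 1 higher (5.9% of all genes). LORICRIN had the most negative difference of the 53, and IVL, 347.8 kb away, was among the 8 positive ones. KPRP lies 146.5 kb from IVL on the other side. These genes are neighbours and may share reads between near-identical copies, so the counts are a description.

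**Figure D5:**
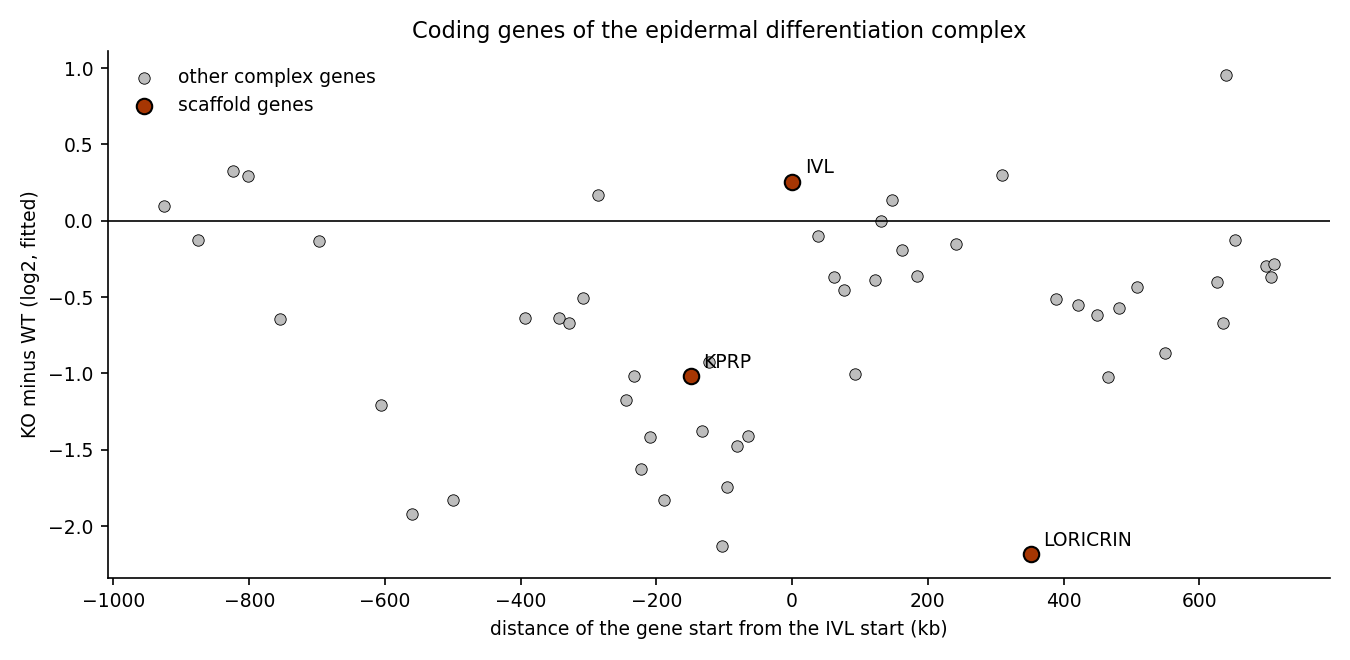
Fitted KO minus WT log2 difference (vertical axis) of the 53 tested coding genes of the epidermal differentiation complex against the distance of each gene start from the start of IVL (kb). LORICRIN is the lowest point, KPRP lies at -1.02, and IVL is one of 8 genes above 0.

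Other genes of the envelope were read from the same fit, and 0 of them were called. The counts below are at an unadjusted p under 0.05, which 6.63% of all genes reached as lower in KO tumours and 5.9% as higher. Of 31 other precursors of the complex, 18 were lower in KO tumours and 0 were higher, with a median difference of -0.64 (log2). FLG, which encodes the filament-aggregating protein filaggrin, differed by -1.20 ± 0.50 and SPRR1B, a small proline-rich precursor, by -0.39 ± 0.18. Of 10 other envelope substrates, 7 were lower and 0 higher, with a median of -0.57. S100A10 and S100A11, which are among these 10, lie in the complex and were also counted there. The 10 include CALML5, a calmodulin-like protein, at -1.12 ± 0.33, and SBSN, suprabasin, at -0.60 ± 0.22. Of 10 genes for cross-linking and lipid attachment, 5 were lower and 0 higher, with a median of -0.58. TGM1, the membrane transglutaminase, differed by -0.25 ± 0.22 and ABCA12, a lipid transporter, by -0.30 ± 0.30 (limma adjusted p = 0.589 and 0.620).

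The list of plakins and desmosomal partners and the list of proteases and inhibitors of corneodesmosome shedding had medians of opposite sign. Of 12 plakins and desmosomal partners, 0 were lower and 7 higher at an unadjusted p under 0.05, where 5.9% of all genes were higher, with a median of 0.38. DSP, desmoplakin, which links desmosomes to keratins, differed by 0.59 ± 0.25 and PKP1, a plaque protein that was not among the 7, by 0.32 ± 0.18. Of 8 tested proteases and inhibitors of corneodesmosome shedding, 8 were lower and 0 higher, where 6.63% of all genes were lower, with a median of -1.04. SPINK5, which encodes a kallikrein inhibitor, differed by -0.92 ± 0.28 and CTSD, cathepsin D, by -0.39 ± 0.10.

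Markers of the layers below the cornifying cells were read in the same way, at an unadjusted p under 0.05 and beside the same shares of 6.63% lower and 5.9% higher. Of 7 spinous markers, 4 were lower and 0 higher, with KRT10 at -0.92 ± 0.39 and KRT1 at -1.17 ± 0.44, the paired keratins of cells that have left the basal layer. Of 9 basal markers, 0 were lower and 4 higher. The most expressed of them, KRT14 at 0.27 ± 0.17 and KRT5 at 0.33 ± 0.18, were not among the 4 (unadjusted limma p = 0.126 and 0.0807). Of 19 factors of differentiation, 7 were lower and 0 higher, among the lower ones JUNB at -0.21 ± 0.08. FOSL2, a member of AP-1 like JUNB, was at 0.23 ± 0.22 and passed in neither direction. Of 8 tested fibroblast markers, 0 were lower and 2 higher, with a median of 0.44. With their mean as a covariate the late differences were -1.44 for LORICRIN, -0.47 for CNFN, -0.67 for KPRP, -0.36 for CDSN and -0.76 for SCEL, and the early ones 0.11 for IVL, 0.04 for EVPL and -0.09 for PPL, and the part of stroma in them was not tested beyond this. The handling of mouse reads is not given in the sources used.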

How the data were processed

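Poly(A) RNA of 23 xenograft tumours was analysed from 1 table of normalized counts that the authors deposited. The submitters' processing notes name STAR, DESeq2 and the build hg38, while their roles, versions, the strand setting and the handling of mouse reads are, for these files, not given in the sources used here. Deposited values are a signal on 1 scale per library: 70.6 to 83.8% of low values were whole multiples of the smallest step, taken as 1 read (within 0.02 reads), which gave the estimated depths. As the values are not raw counts, log2(value + 1) was tested with limma 3.58.1 (R 4.3.3) for genes with a mean of at least 10, with a trended variance, the line as a random block and Benjamini-Hochberg adjustment at 0.05 over 16063 genes. Lines were compared in a model with 1 mean per line. Line means were tested with exact permutations and correlations with 100000 permutations (scipy, Python). No libraries were duplicates (lowest chi-square per degree of freedom 7.75). Described genes were all 8 members, the 2 most expressed genes of each list of related genes, and the 3 genes most like each member. The members and lists were chosen with earlier results of these data known. The alternatives covered pseudocount, low-value filter, scaling, weights, covariates, and leaving out tumours, lines or shallow libraries.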

Additional observations from a re-analysis of the deposited data

Results flagged for a closer look

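Specimen 5533 of WT line 6C9 stood far below its 3 line mates for EVPL, at 1060 normalized counts against 3921 to 4555 in the others. Its gap to the nearest of them was 0.897 of the range of the line on the log2 scale and 0.819 of it on the linear scale, where it does not pass Dixon's critical value. It was the 1 such case among 40 sets of 4 tumours, each a member in a line, and chance alone marks about 1 in 20. The library was the shallowest of the series, with 2037751 estimated reads, and the part of depth in this value was not tested.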

How the results depend on the processing

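The 5 late genes had a negative KO minus WT difference in all 41 alternatives, from -2.82 to -1.44 for LORICRIN, -1.15 to -0.47 for CNFN, -1.40 to -0.67 for KPRP, -0.64 to -0.32 for CDSN and -1.42 to -0.76 for SCEL (log2). The early minus late difference was 1.05 to 1.52 in the 36 alternatives run for it. The calls were less stable. With limma array quality weights, 738 genes were called and 4 members, with adjusted p of 0.0149 for LORICRIN, 0.0385 for KPRP, 0.0440 for CDSN and 0.0123 for SCEL. The weights also gave 7 members called among KO lines, 1 among WT lines, and 3, 5 and 2 for lines 2F7, 2B8 and 1G10 against the WT lines. The share of all genes called in those weighted line comparisons was not counted, so these counts of members cannot be set against it. The other alternatives called 0 members between the genotypes, and over them the count of all genes called was 1 or 0. It was 0 with equal totals, without both shallow libraries, with line means, with the fibroblast or the chromosome 20 covariate, and without line 5B2, 6C10, 2B8 or 1G10. Leaving out 1 tumour gave 0 to 1 genes called between the genotypes. For line 1G10 against the WT lines it gave 0 to 1 members, with the 1 when WT specimen 5531 was out. The share of all genes called there was not counted. PPL changed sign, to 0.0039 with equal totals, 0.14 without line 5B2, 0.052 without 6C10, 0.036 without 2B8 and 0.068 without 1G10, and ran from -0.21 to 0.055 when 1 tumour was left out. IVL and EVPL changed sign with the chromosome 20 covariate, to -0.067 and -0.017. The cause was not tested. Specimen 5549 of line 1G10 was the lowest KO tumour for 7 members. The count of members lower at an unadjusted p under 0.05, 5 as reported, was 2 without line 2B8 (2.94% of all genes). It was 3 with line means (4.81%) or the fibroblast covariate (2.37%), and 4 or 5 in the others (3.54 to 11.3%). No paired analysis was possible because the specimen numbers are not shared between the genotypes. Depth limits SCEL in specimen 5533, where 90.0 reads were estimated.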
